A study of Saccharomyces cerevisiae with 6 samples.

Results

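Translation initiation factor genes of budding yeast (*Saccharomyces cerevisiae*) are described here by RNA level and by poly(A) tail length in 3 strains. The members are the genes of 33 named initiation factors, subunits and regulators. They were picked by gene symbol, with no rule on measured values, though earlier results of these data were known. The deposited table lists 4909 genes, of which 32 are members, and DBP1, the paralog of the helicase gene DED1, was not analysed here. Direct RNA sequencing on nanopores was used, which reads native polyadenylated RNA molecules and gives for each gene a read count and a median tail length. Each strain had 2 libraries. The wild type was BY4741, Mat a, with leu2Δ0, his3Δ1, ura3Δ0 and met15Δ0. Both degron strains were derived from BY4741 and carried TAO3_E1493Q, an inserted A at -308 of RME1, and a trp1-1 locus with TRP1, the Z3EV transcription factor expressed from the URA3 promoter, and TIR under Z3EV control. The Dcp2 degron strain (LMA5574) also had DCP2 fused to polyG-3Flag-AID with kanMX. The Ccr4/Pop2 degron strain (LMA5601) had AID-3Flag-CCR4 and CAF1 (the POP2 gene, YNR052c) fused to AID with KanMX6. All strains, the wild type included, were grown in YPD at 30 °C to an OD600 of 0.4 and kept for 1 h with 100 µM IAA, an auxin, and 1 µM β-estradiol. The effect of losing a decay factor and that of the other alleles of the degron strains cannot be told apart, because the wild type carries none of them. The labels give 1 strain name for each degron and do not say whether the libraries of a strain came from separate cultures, so p-values measure only the spread between these libraries.

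Eukaryotic messenger RNAs are read from a start codon that a scanning small ribosomal subunit finds. eIF4F binds the 5′ cap: eIF4E holds the cap, eIF4G is the scaffold, and eIF4A, helped by eIF4B, unwinds the leader. eIF2 delivers the initiator tRNA as a complex with GTP, eIF2B recharges eIF2 with GTP, and Gcn2 phosphorylates eIF2 when amino acids are short. eIF3, eIF1 and eIF1A bind the small subunit, eIF5 triggers GTP hydrolysis by eIF2, and eIF5B joins the subunits. Cap and tail also mark the ends at which messages are degraded: Ccr4 and Pop2 shorten the tail, and Dcp2 removes the cap. In the degron strains the tag directs the tagged protein to destruction when auxin is present.

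The libraries held between 1067250 and 8450296 reads. In replicate 1 of the Ccr4/Pop2 degron, the deepest, all 4909 counts were multiples of 4, against 1167 to 1271 genes in each other library, so its counts may not be numbers of separate reads and the level calls of members made with TMM scaling and the block are also given without it. Genes with under 20 reads numbered 0 in replicate 1 of both degrons and 178 to 788 elsewhere. Levels are given as CPM, read counts per library scaled to a common size with TMM, a method that holds the typical gene level across libraries. Values with the Dcp2 tag or with the Ccr4/Pop2 tags are those of the degron strains. The degron acts on the protein, so the RNA of the tagged genes does not check the depletion. DCP2 RNA was at 50.9 and 54.7 CPM for wild type against 22.8 and 22.7 CPM with its tag, while POP2 RNA was at 70.5 and 49.9 CPM for wild type against 43.7 and 30.8 CPM with its tag. The a-specific genes expected of Mat a cells were all listed (6 of 6), with a summed level between 570.2 and 1577 CPM, and the only alpha-specific gene listed of 4, SAG1, stayed between 3.0 and 22.8 CPM.

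Members took between 0.712% and 1.20% of the reads of a library. The share was 1.20% (95% Wilson interval 1.18 to 1.21) and 0.791% (0.778 to 0.805) for wild type, 1.01% (0.989 to 1.03) and 0.712% (0.70 to 0.724) with the Dcp2 tag, and 1.14% (1.13 to 1.15) and 0.791% (0.778 to 0.804) in the Ccr4/Pop2 degron. In each strain replicate 2 had the lower share, and the intervals cover counting error only. The interval of Ccr4/Pop2 replicate 1 takes its counts as separate reads, and is too narrow if they are not. Read counts of single members ran from 4 (DED1, wild type replicate 2) to 14592 (TIF2, Ccr4/Pop2 degron replicate 1).

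In the wild type, member levels per kilobase of gene spread widely. Per length, the small scanning factors stood at the top, with a mean of 3599 CPM per kilobase for SUI1 (eIF1) and 1951 for TIF11 (eIF1A), followed by CDC33 (eIF4E) at 1558. TIF2 and TIF1 (eIF4A) were at 1249 and 1015. The eIF2B genes were between 32.3 and 152.3, and the lowest members were GCN2, the eIF2 kinase, at 5.17, and EAP1, which binds and blocks eIF4E, at 8.46. One read stands for 1 molecule in this method, so division by length lowers long genes, and this order is not that of the CPM values themselves.

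**Figure D1:**
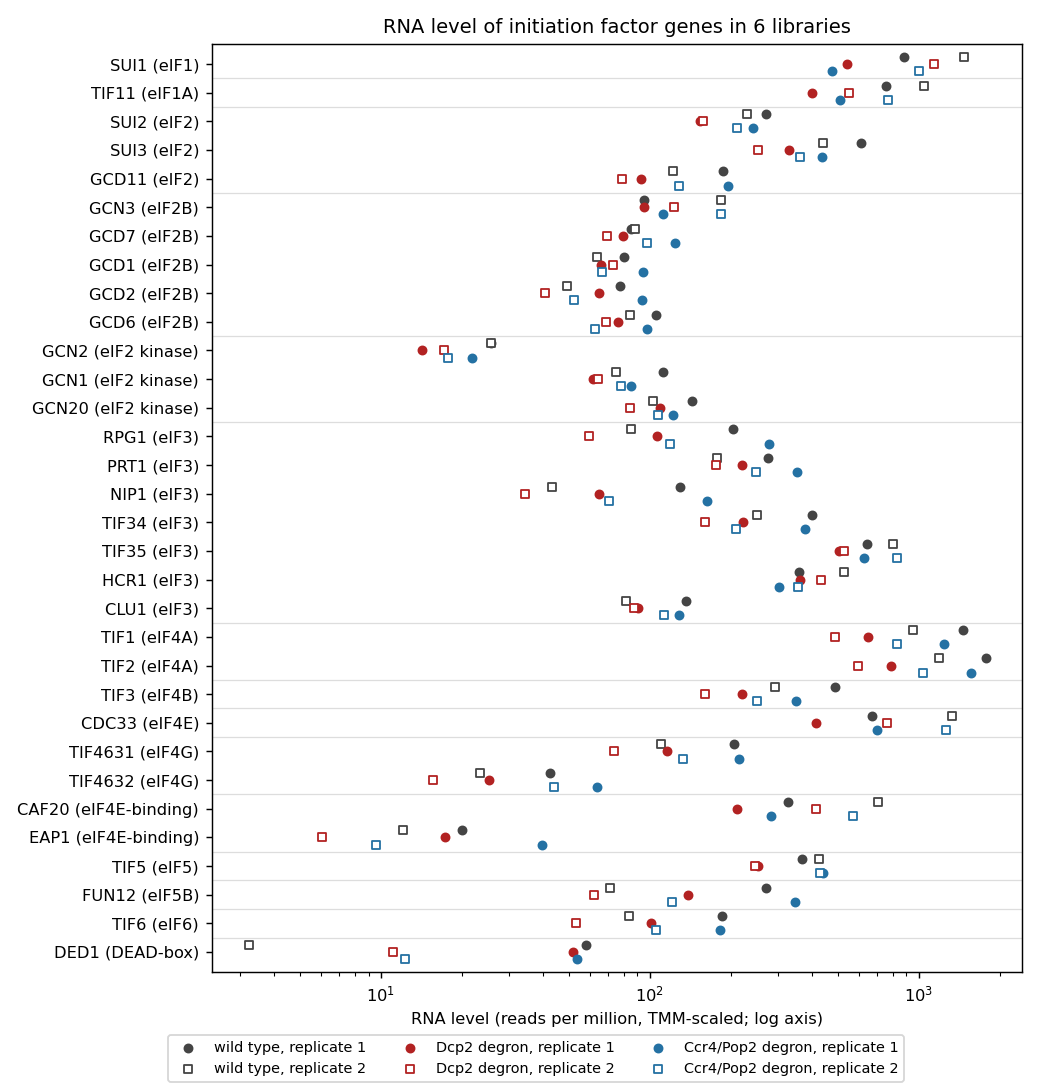
RNA level of the 32 listed members in TMM-scaled CPM (log axis), with the complex of each gene in brackets. Points are libraries, filled for replicate 1 and open for replicate 2, coloured by strain, and grey lines separate complexes. Within most genes the Dcp2 degron point lies to the left of the wild-type point with the same replicate number, and DED1 has its lowest point in wild type replicate 2.

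In the Dcp2 degron most members were lower than in the wild type. When the libraries were paired by replicate number, as a block in the model, 20 of 32 passed the test as lower and 0 as higher, where 19.7% of all genes were lower, 17.6% higher and 37.4% either. The median log2 change of the members was -0.67, beside -0.0027 for all genes. Within both same-numbered pairs of libraries 28 of 32 members had the lower value in the Dcp2 degron (39.2% of all genes), and both Dcp2 libraries lay below both wild-type libraries for 14 (20.4%), with 0 members above (21.8%). Levels are shares of the reads of bulk cultures, so loss of a message from some of the cells and less of it in every cell cannot be told apart.

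These calls need the block. Without it, edgeR called 0 of 32 members and 0.0% of all genes, with 3 members and 579 genes at an unadjusted p under 0.05, and DESeq2 called 0 members and 53 genes. The changes are relative to the median gene: with scaling by total counts the median of all genes was 0.51 and that of the members -0.155, and with the block 5 members passed as lower (TIF11, SUI3, TIF1, TIF2 and TIF3) and 4 as higher (GCD1, PRT1, HCR1 and DED1), beside 6.11% and 50.7% of all genes (56.8% in either direction). Leaving out a wild-type or Dcp2 library in turn gave a members' median between -0.71 and -0.52 with TMM scaling and the block. For all genes it was between -0.015 and -8.4e-05. Fewest members passed without wild type replicate 1, where fewest of all genes passed too. In that fit the members' median was -0.55, and DED1, left with 4 wild-type reads, was called higher. Without replicate 1 of the Ccr4/Pop2 degron the members' median was -0.68, beside -0.005 for all genes. Dividing that library's counts by 4 gave 21 members lower and 0 higher (20.6% and 19.1% of all genes, 39.7% in either direction).

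The largest falls were in the eIF4F helicase. TIF1 and TIF2 encode the same protein, eIF4A, and their coding sequences share almost all letters. The 1188 coding bases match in 1182 positions (99.5%), with 6 substitutions and a longest identical run of 644 bases. TIF1 (YKR059W) is the single coding exon at chrXI:554987-556174 on the plus strand, and TIF2 (YJL138C) is the single coding exon at chrX:153504-154691 on the minus strand, both in the R64 assembly, which is sacCer3. The last 120 coding bases, to the stop codon, are shown because direct RNA reads start at the 3′ end, so that of the coding bases this stretch is read first. Capitals mark the bases that differ, C1170T and T1176C, counted from the first coding base with the TIF1 base first. The remaining substitutions are T60C, C225T, T228C and C873T. From RefSeq's R64 genome, chrXI:556055-556174 plus strand and chrX:153504-153623 minus strand:
TIF1: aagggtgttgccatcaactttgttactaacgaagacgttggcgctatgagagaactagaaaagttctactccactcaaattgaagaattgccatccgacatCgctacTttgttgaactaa
TIF2: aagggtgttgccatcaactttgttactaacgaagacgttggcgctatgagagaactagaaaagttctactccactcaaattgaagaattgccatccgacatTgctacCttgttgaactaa

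Reads of TIF1 and TIF2 may therefore have been exchanged by the aligner, and their separate values are uncertain. The untranslated ends were not compared. TIF2 reads were 1.21 and 1.26 times those of TIF1 for wild type, 1.22 and 1.22 times with the Dcp2 tag, and 1.26 and 1.25 times with the Ccr4/Pop2 tags, a range of 1.21 to 1.26 over the 6 libraries. Summed, the pair was at 3236 and 2144 CPM for wild type, 1440 and 1082 CPM with the Dcp2 tag and 2804 and 1869 CPM with the Ccr4/Pop2 tags. Both Dcp2 values lie below both wild-type values, and the Ccr4/Pop2 values do not separate from them.

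Taken singly, TIF1 was at 1462 and 949 CPM for wild type, 649.5 and 488 CPM with the Dcp2 tag and 1241 and 831 CPM with the Ccr4/Pop2 tags. TIF2 was at 1774 and 1195, 790.3 and 594.5, and 1563 and 1038 CPM in the same order. In the Dcp2 degron TIF1 fell by 1.07 ± 0.12 (SE, n = 2 libraries per strain) on the log2 scale with the block (adjusted p = 1.81e-06) and TIF2 fell by 1.09 ± 0.11 (adjusted p = 1.43e-06), to 0.471 of the wild-type level for TIF2. TIF3, the eIF4B gene whose product helps the helicase, was at 488 and 291 CPM for wild type, 219.8 and 160.2 CPM with the Dcp2 tag and 351 and 251 CPM with the Ccr4/Pop2 tags. It fell by 1.02 ± 0.13 in the Dcp2 degron (adjusted p = 8.04e-06), with no overlap between these groups.

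The cap-binding gene CDC33 (eIF4E) was at 668 and 1332 CPM for wild type, 414 and 761 CPM with the Dcp2 tag and 697 and 1262 CPM with the Ccr4/Pop2 tags. Replicate 2 was the higher one in each strain, so the Dcp2 and wild-type libraries overlap, yet within each replicate number the Dcp2 value was lower, by 0.69 and 0.81 on the log2 scale. Its fall with the block was 0.75 ± 0.11 (adjusted p = 5.06e-05). The eIF4G scaffold is encoded by TIF4631 and TIF4632, whose coding sequences are 58.3% identical with no shared run over 21 bases, so their reads are readily told apart. TIF4631, the more abundant, was at 205.3 and 110.3 CPM for wild type, 115.5 and 73.8 CPM with the Dcp2 tag and 215 and 133 CPM with the Ccr4/Pop2 tags. TIF4632, with only 29 to 83 reads outside the deepest library, was at 42.7 and 23.3, 25.3 and 15.7, and 63.9 and 43.9 CPM. Both paralogs fell in the Dcp2 degron, by 0.72 ± 0.15 (adjusted p = 0.000828) and 0.70 ± 0.23 (adjusted p = 0.0259). Of the repressors that bind eIF4E, CAF20 fell by 0.70 ± 0.12 (adjusted p = 0.000151), and EAP1, with 12 to 39 reads in the wild-type and Dcp2 libraries, had a change of -0.43 ± 0.35 (adjusted p = 0.357).

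Genes of the ternary complex and of scanning were lower as well. All 3 subunits of eIF2 passed as lower in the Dcp2 degron, beside 19.7% of all genes. SUI3, the beta subunit, was at 612 and 441 CPM for wild type, 329.7 and 252 CPM with the Dcp2 tag and 436 and 362 CPM with the Ccr4/Pop2 tags, and fell by 0.85 ± 0.12 (adjusted p = 2.45e-05) in the Dcp2 degron. GCD11, the gamma subunit that binds GTP and the initiator tRNA, was at 188 and 122, 92.6 and 78.9, and 195 and 129 CPM. It fell by 0.83 ± 0.15 (adjusted p = 0.000359). SUI2, the alpha subunit that Gcn2 phosphorylates, had Dcp2 values of 154 and 158 CPM below wild-type values of 269.6 and 230.3, a fall of 0.67 ± 0.13. For each of the 3 genes both Dcp2 libraries lay below both wild-type libraries, as they did for 20.4% of all genes.

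TIF11 (eIF1A) was at 757 and 1046 CPM for wild type, 401 and 549.97 CPM with the Dcp2 tag and 508 and 770.4 CPM with the Ccr4/Pop2 tags. Its fall in the Dcp2 degron was 0.92 ± 0.12 (adjusted p = 7.39e-06), and the same-numbered pairs gave -0.92 and -0.93. SUI1 (eIF1), which guards start codon choice, was at 883 and 1471, 542 and 1136, and 476 and 999 CPM. The strains overlap because replicate 2 is the higher one in each, and with the block SUI1 fell by 0.54 ± 0.12 (adjusted p = 0.00177). With scaling by total counts and the block its change in the Dcp2 degron was -0.02.

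Of the 5 genes of eIF2B, the exchange factor of eIF2, 0 passed the test in the Dcp2 degron. Of all genes, 19.7% passed as lower and 17.6% as higher. Their log2 changes in the Dcp2 degron with the block were -0.38 (GCD6, the catalytic epsilon subunit), -0.31 (GCN3, alpha), -0.25 (GCD2, delta), -0.20 (GCD7, beta) and -0.03 (GCD1, gamma), with adjusted p from 0.0885 to 0.912. Summed over the 5 genes the level was 443 and 469 CPM for wild type, 382 and 376 CPM with the Dcp2 tag and 522 and 463 CPM with the Ccr4/Pop2 tags. For GCD6 and GCD7 too, both Dcp2 libraries lay below both wild-type libraries. The difference between the eIF2 and eIF2B genes was not tested. In the branch that regulates eIF2, GCN1, an activator of Gcn2, fell by 0.57 ± 0.18 (adjusted p = 0.0179). The kinase gene GCN2, with 23 to 50 reads outside the deepest library, had a change of -0.70 ± 0.27 (adjusted p = 0.0502), and GCN20, a partner of Gcn1, one of -0.35 ± 0.15 (adjusted p = 0.0778).

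Of the 7 eIF3 genes, 4 passed as lower in the Dcp2 degron with TMM scaling and the block, beside 19.7% of all genes. With scaling by total counts and the block these 4 did not pass, and PRT1 and HCR1 passed as higher. RPG1, the a subunit, was at 204 and 85.3 CPM for wild type, 106.8 and 59.6 CPM with the Dcp2 tag and 278.5 and 119 CPM with the Ccr4/Pop2 tags. NIP1, the c subunit, was at 129 and 43.5, 64.8 and 34.4, and 164 and 70.6 CPM. For both genes replicate 2 was well under replicate 1 in every strain, so the wild-type and Dcp2 libraries overlap. RPG1 fell by 0.76 ± 0.16 (adjusted p = 0.00102) and NIP1 by 0.75 ± 0.19 (adjusted p = 0.00383) with the block.

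TIF34, the i subunit, was at 403 and 251 CPM for wild type, 222 and 160.2 CPM with the Dcp2 tag and 379 and 209 CPM with the Ccr4/Pop2 tags, and fell by 0.75 ± 0.13 (adjusted p = 0.000211). TIF35, the g subunit, fell by 0.48 ± 0.12 (adjusted p = 0.00443) with TMM scaling, and its sign turned to 0.04 with scaling by total counts. The other eIF3 genes did not pass. PRT1, the b subunit, had a change of -0.18 ± 0.13, HCR1, the loosely bound j subunit, one of -0.14 ± 0.12, and CLU1, an eIF3-associated protein, one of -0.28 ± 0.17.

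The late factors passed as lower as well. TIF5, the GTPase-activating factor eIF5, was at 368 and 427 CPM in the wild type and 253 and 247 in the Dcp2 degron, with no overlap, and fell by 0.66 ± 0.13 (adjusted p = 0.000396). FUN12 (eIF5B) was at 270.6 and 70.8 CPM for wild type, 138 and 62.2 CPM with the Dcp2 tag and 348 and 121 CPM with the Ccr4/Pop2 tags. It fell by 0.67 ± 0.17 in the Dcp2 degron (adjusted p = 0.00431), but the replicate 2 pair differed by -0.19 only, beside -0.97 for replicate 1. TIF6 (eIF6), which keeps the large ribosomal subunit from joining early and takes part in its assembly, was at 186 and 83.7, 101 and 53.1, and 182 and 106 CPM. The wild-type and Dcp2 libraries overlap, and its fall with the block was 0.79 ± 0.16 (adjusted p = 0.000673).

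DED1, a helicase that assists scanning, could not be judged. It was at 58.1 and 3.22 CPM in the wild type, where the lower value rests on 4 reads, at 51.9 and 11.1 in the Dcp2 degron and at 53.6 and 12.3 in the Ccr4/Pop2 degron. Replicate 2 was low in every strain, and the block model gave changes of 0.08 ± 0.28 and 0.10 ± 0.25. The coding sequences of DED1 and DBP1 are 65.9% identical, with no shared run over 14 bases.

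**Figure D2:**
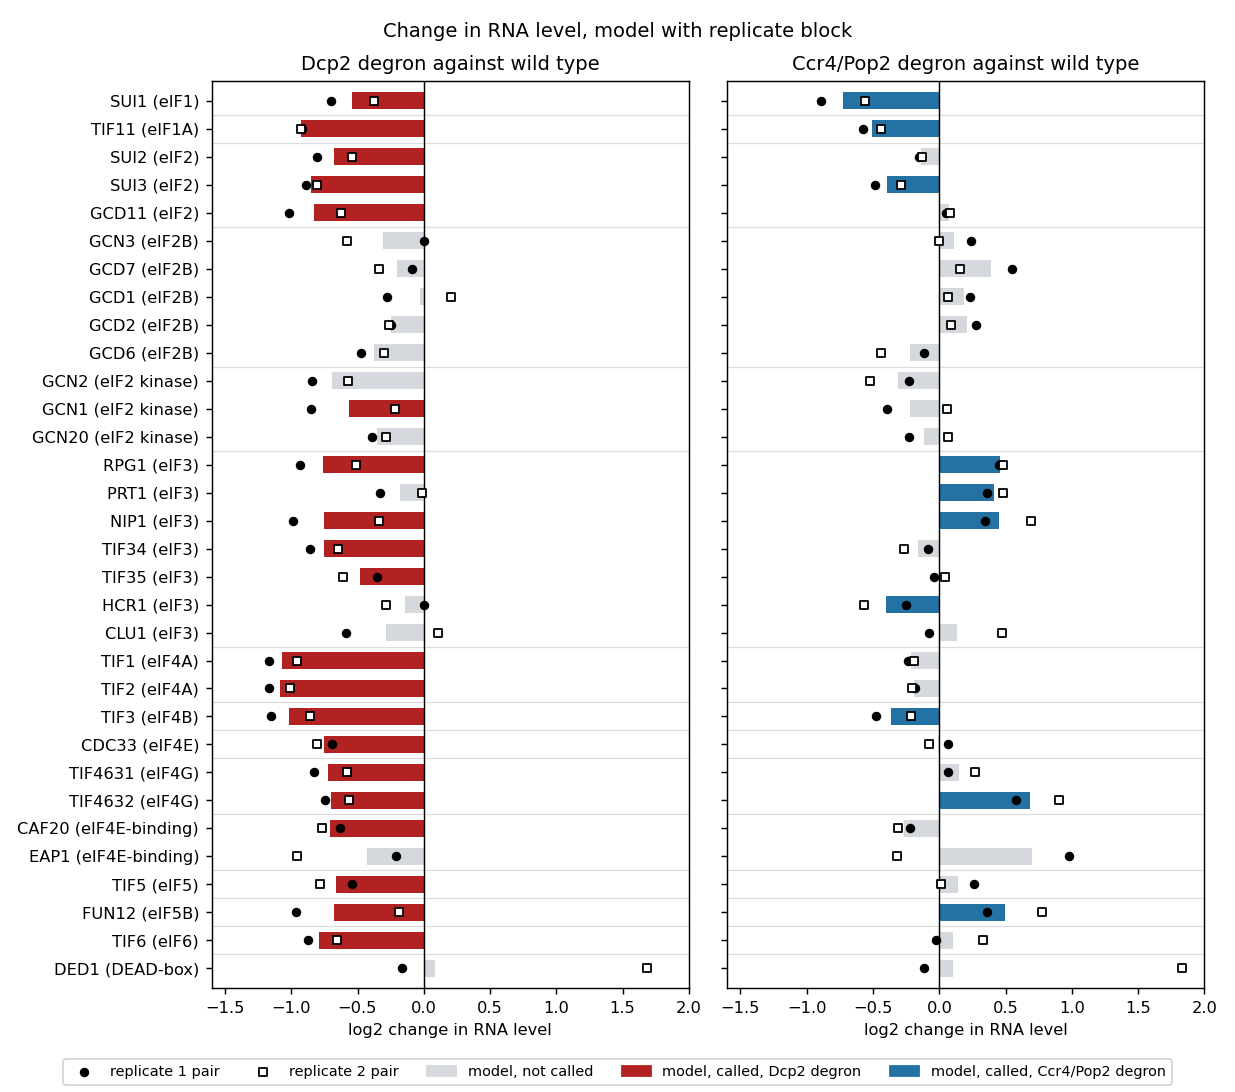
Log2 change in RNA level of each member in the Dcp2 degron (left) and the Ccr4/Pop2 degron (right) against wild type. Bars are edgeR estimates with the replicate block, coloured where the adjusted p is under 0.05 over all genes and grey otherwise, and points are the differences within the replicate 1 and replicate 2 pairs. On the left 20 bars are coloured and all point to lower levels, and on the right 5 point up and 5 down.

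In the Ccr4/Pop2 degron the members did not move one way against the wild type. With the block 5 passed as higher and 5 as lower, beside 14.2% and 12.8% of all genes (27.0% in either direction), and the median log2 change was 0.03, beside -0.01 for all genes. Without the block 0 members and 0.0815% of all genes were called, and 0 members had an unadjusted p under 0.05, against 392 genes. Both Ccr4/Pop2 libraries lay above both wild-type libraries for 3 members (16.5% of all genes) and below for 3 (15.6%). Scaling by total counts moved the median of all genes to 0.10, and with the block 7 members were then higher and 2, TIF11 and SUI1, lower, beside 20.2% and 8.82% of all genes (29.0% in either direction). The calls with TMM scaling and the block rest on every library, and most did not hold when any of the 4 was left out in turn. RPG1, NIP1, PRT1, SUI3 and TIF3 passed in none of these fits. Without wild type replicate 2, and without Ccr4/Pop2 replicate 2, the higher member was EAP1, which did not pass with all libraries. Without Ccr4/Pop2 replicate 1, TIF4632 stayed higher and HCR1 and SUI1 lower. The members' median over these fits ran from -0.10 to -0.02, beside -0.05 to -0.01 for all genes.

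Members that passed as above the wild type were genes of eIF3, eIF4G and eIF5B. RPG1 differed by 0.46 ± 0.14 (adjusted p = 0.0231), NIP1 by 0.45 ± 0.16 (adjusted p = 0.0453), PRT1 by 0.41 ± 0.13 (adjusted p = 0.0226) and FUN12 by 0.50 ± 0.15 (adjusted p = 0.0234). PRT1 was at 276 and 178 CPM for wild type, 219.8 and 176 CPM with the Dcp2 tag and 353 and 248 CPM with the Ccr4/Pop2 tags. TIF4632 rose by 0.69 ± 0.19 (adjusted p = 0.012), to 1.61 times the wild type, and both its Ccr4/Pop2 values were above both wild-type values, while its paralog TIF4631 had a change of 0.15 ± 0.14 (adjusted p = 0.461).

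Members below the wild type were SUI1, by 0.73 ± 0.12 (adjusted p = 0.000233), TIF11, by 0.51 ± 0.11 (adjusted p = 0.00287), SUI3, by 0.40 ± 0.12 (adjusted p = 0.0182), TIF3, by 0.36 ± 0.12 (adjusted p = 0.0355), and HCR1, by 0.40 ± 0.12 (adjusted p = 0.021). HCR1 was at 360.1 and 526 CPM for wild type, 361 and 432 CPM with the Dcp2 tag and 302.5 and 356 CPM with the Ccr4/Pop2 tags, so both Ccr4/Pop2 values lie below both wild-type values. The 5 genes that passed as higher are between 2292 and 3009 bases long, and those that passed as lower are between 327 and 1311. The longest members, GCN1 (8019 bases), GCN2 (4980) and CLU1 (3834), did not pass, with changes of -0.22, -0.31 and 0.14. Over the 32 members the log2 change with the block and gene length had a Spearman correlation of 0.50, beside -0.04 over 4908 genes of the table. These points share all 4 libraries.

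Between the degrons most members were higher with the Ccr4/Pop2 tags. With the block 24 of 32 members were higher in the Ccr4/Pop2 degron than in the Dcp2 degron and 0 were lower, beside 26.3% and 20.8% of all genes (47.1% in either direction). The median log2 difference was 0.56, beside 0.08 for all genes. Without the block 0 members and 0.0% of all genes passed, with 3 members and 803 genes at an unadjusted p under 0.05, and DESeq2 called 0 members and 155 genes. Both Ccr4/Pop2 libraries were above both Dcp2 libraries for 18 members (23.4%) and below for 1, HCR1 (22.2%). With scaling by total counts the median of all genes was -0.33, that of the members 0.164, and with the block 12 members were higher and 2, HCR1 and SUI1, lower, beside 9.64% and 41.1% of all genes. Leaving out single libraries gave a members' median between 0.52 and 0.62 with TMM scaling and the block, beside 0.05 to 0.08 for all genes. Without Ccr4/Pop2 replicate 1 it was 0.54. HCR1 was called lower without Dcp2 replicate 2. With the counts of Ccr4/Pop2 replicate 1 divided by 4, 24 members were higher (25.7% of all genes, 45.9% in either direction).

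The largest difference was that of TIF4632, at 1.38 ± 0.20 (adjusted p = 3.04e-05), followed by RPG1 at 1.22 ± 0.15 (adjusted p = 4.88e-06), NIP1 at 1.21 ± 0.17 (adjusted p = 2.25e-05) and FUN12 at 1.17 ± 0.16 (adjusted p = 1.46e-05). TIF5 is an example with little spread: both pairs gave 0.80, with Ccr4/Pop2 values of 440.1 and 429.8 CPM. Members that did not pass were SUI1, GCD1, GCD6, GCN2, GCN1, GCN20, HCR1 and DED1. All comparisons share strains, so a low value in the Dcp2 libraries enters both this difference and that against the wild type.

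Replicate number and gene length went together in all 3 strains. The Spearman correlation between gene length and the log2 ratio of replicate 2 to replicate 1 over the 32 members was -0.62 for wild type, -0.45 with the Dcp2 tag and -0.51 with the Ccr4/Pop2 tags, and between -0.50 and -0.51 over all genes. CAF20 (486 bases) was higher in replicate 2 by 1.11, 0.98 and 1.02, and SUI1 (327 bases) by 0.74, 1.07 and 1.07. FUN12 (3009 bases) was lower in replicate 2 by -1.93, -1.15 and -1.52. TIF6 (738 bases) was short and yet lower, by -1.15, -0.93 and -0.78. What separates the replicate numbers is not given in the labels, and the part of read length in it was not tested.

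**Figure D3:**
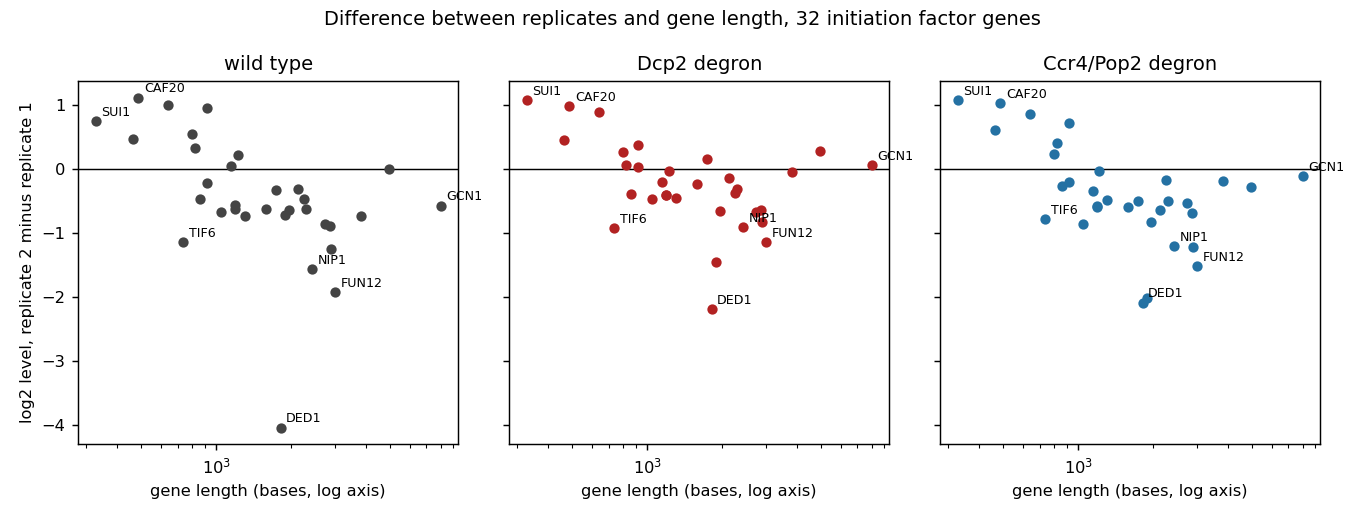
Log2 level in replicate 2 minus replicate 1 against gene length in bases (log axis) for the 32 members, one panel per strain, with a few genes labelled. Short genes such as CAF20 and SUI1 lie above 0 and FUN12, NIP1 and DED1 below in all 3 strains.

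Tail lengths of members were a little under those of the typical gene in the wild type. The median member had 36.3 and 40.5 nt in the wild-type libraries, where the median gene had 38.4 and 42.9 nt, and 9 and 5 of the 30 members with at least 20 reads in every library (all but EAP1 and DED1) were above the median gene. The longest wild-type tails belonged to TIF6, at 54.7 and 61.3 nt, above 99.1% of the genes, and to NIP1, at 47.6 and 52.6 nt, above 90.5%. The shortest were those of TIF4632, at 29.8 and 33.9 nt, above 4.33% of the genes, and TIF11, at 31.6 and 33.2 nt, above 5.42%.

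In the Dcp2 degron the median member had 32.5 and 39.3 nt, and the median gene 31.4 and 38.8 nt, so 20 and 17 of 30 members were now above the median gene. The median log2 change of the members against the wild type was -0.093, beside -0.22 for all genes, and 0 of 30 members and 0.0% of all genes passed limma's test. No member had an unadjusted p under 0.05, against 793 genes. Single Dcp2 libraries moved this result: without Dcp2 replicate 2, 7 members passed as shorter (TIF35, GCN1, GCN3, HCR1, SUI1, CAF20 and TIF5), beside 52.3% of all genes, and without Dcp2 replicate 1 none passed and the members' median turned to 0.049. Both Dcp2 tails were under both wild-type tails for 6 of 30 members, beside 44.9% of all genes, and above for 0, beside 1.67%. Those 6 were SUI1, TIF11, GCD1, GCN1, HCR1 and CLU1. After centring each library on its median gene the members' median change was 0.123.

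The eIF4A genes, which had the largest falls in level, had overlapping tails in both strains. TIF1 had 32.4 and 40.5 nt for wild type against 31.8 and 42.1 nt for the Dcp2 degron, and TIF2 had 33.2 and 40.5 nt and 32.4 and 41.8 nt. Log2 changes were 0.014 ± 0.19 and 0.0044 ± 0.17.

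The lowest tail changes in the Dcp2 degron were those of GCN3, TIF35 and HCR1. GCN3 had 38.3 and 42.0 nt for wild type against 24.4 and 38.5 nt for the Dcp2 degron, TIF35 30.5 and 38.0 nt and 21.5 and 34.7 nt, and HCR1 35.4 and 38.2 nt and 26.9 and 34.3 nt. In all 3 genes replicate 1 of the Dcp2 degron was the shortest of the 6 libraries, and only for HCR1 were both Dcp2 values under both wild-type values. The log2 changes were -0.39 ± 0.21, -0.32 ± 0.24 and -0.28 ± 0.15, with adjusted p of 0.317, 0.42 and 0.318. At the other end, GCD2 went from 32.8 and 37.5 nt to 33.2 and 42.0 nt, FUN12 from 30.8 and 41.5 nt to 33.5 and 42.5 nt, and TIF4631 from 40.0 and 47.0 nt to 42.9 and 48.0 nt. Their log2 changes of 0.09, 0.08 and 0.06 were smaller than their standard errors of 0.15, 0.19 and 0.14.

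**Figure D4:**
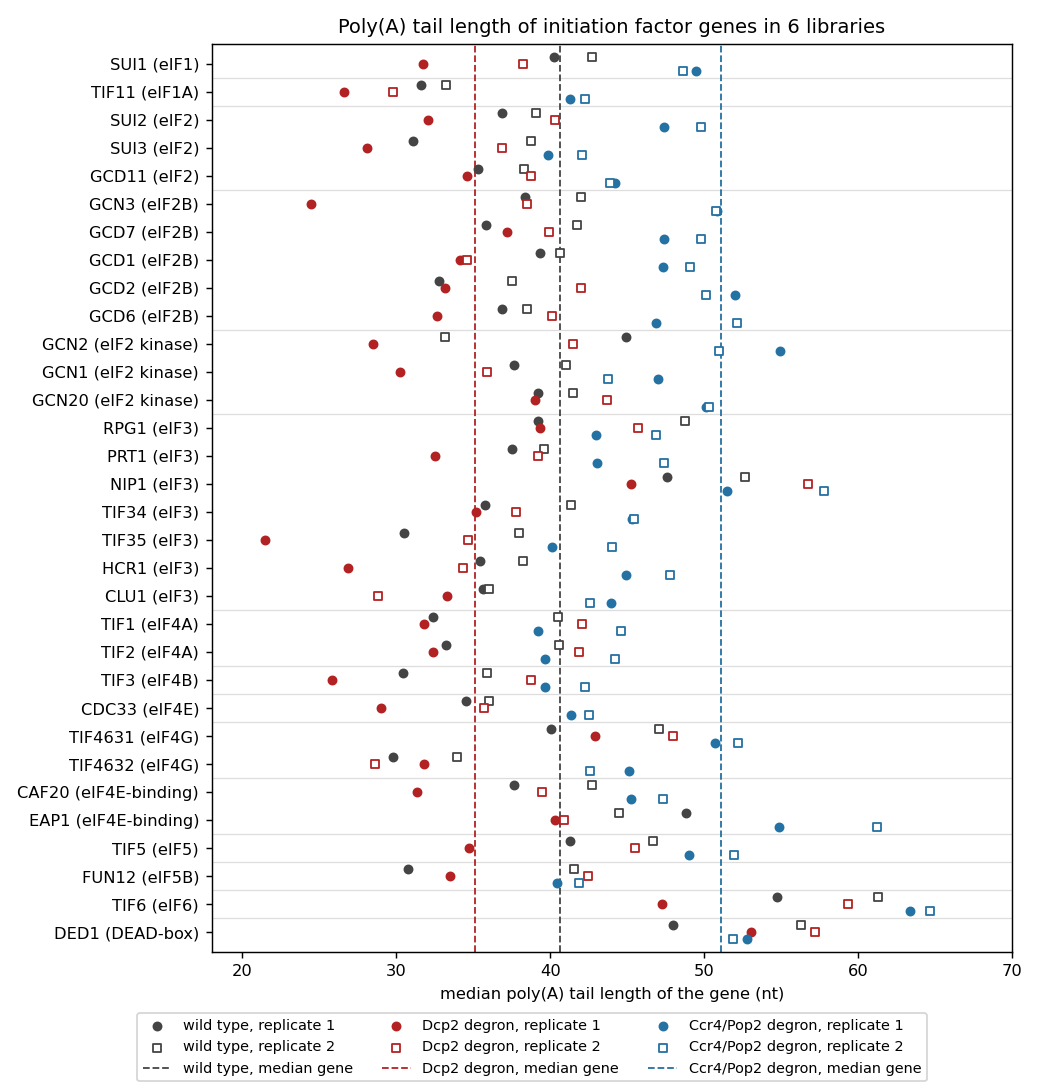
Median poly(A) tail length in nt of the 32 members in 6 libraries, filled points for replicate 1 and open points for replicate 2, coloured by strain. Dashed lines give the mean over both libraries of the median gene's tail, at 40.6 nt (wild type), 35.1 nt (Dcp2 degron) and 51.1 nt (Ccr4/Pop2 degron). Most members' Ccr4/Pop2 points are the rightmost of their gene and lie left of the Ccr4/Pop2 line.

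In the Ccr4/Pop2 degron the mean tail over the 2 libraries was longer than in the wild type for all 30 members. None passed the test against the wild type when all 6 libraries were fitted. In a fit of these 2 strains alone 16 of 30 members passed as longer, beside 59.1% of all genes, so the absence of calls depends on which libraries set the spread. The median member had 45.3 and 47.3 nt and the median gene 50.6 and 51.6 nt, and 6 and 5 of 30 members were above the median gene. Both Ccr4/Pop2 tails were above both wild-type tails for 25 of 30 members, beside 90.0% of all genes. The median log2 change was 0.255, beside 0.30 for all genes. limma called 0 members and 0.0% of all genes, with 8 members and 1136 genes at an unadjusted p under 0.05. After centring each library on its median gene the members' median change was -0.078.

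The largest values were those of GCD2, TIF4632 and GCN2. GCD2 had 32.8 and 37.5 nt for wild type against 52.0 and 50.1 nt for the Ccr4/Pop2 degron, TIF4632 29.8 and 33.9 nt and 45.1 and 42.6 nt, and GCN2 44.9 and 33.2 nt and 54.9 and 50.9 nt. The log2 changes were 0.54 ± 0.15 (adjusted p = 0.165), 0.46 ± 0.13 (adjusted p = 0.165) and 0.46 ± 0.22 (adjusted p = 0.187). Groups did not overlap for any of these 3.

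The smallest values came from eIF3 and eIF6. RPG1 had 39.2 and 48.7 nt for wild type against 43.0 and 46.9 nt for the Ccr4/Pop2 degron, a log2 change of 0.038 ± 0.16, and NIP1 had 47.6 and 52.6 nt and 51.5 and 57.8 nt, a change of 0.12 ± 0.15. TIF6 had 54.7 and 61.3 nt and 63.4 and 64.7 nt, a change of 0.14 ± 0.15. Overlap with the wild type was seen for RPG1, NIP1, TIF1, TIF2 and FUN12, the 5 members that were not above both wild-type libraries. Across the 30 members the wild-type tail and the log2 change had a Spearman correlation of -0.49, and over 3949 genes one of -0.56, with the wild-type libraries entering both quantities.

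Between the degrons, 14 of 30 members had longer tails in the Ccr4/Pop2 degron by limma's test, and 0 shorter, beside 69.6% of all genes longer. The members' median log2 difference was 0.377, and that of all genes 0.53. Both Ccr4/Pop2 tails were above both Dcp2 tails for 25 of 30, beside 95.7% of all genes. Calls by complex were SUI1 (eIF1), TIF11 (eIF1A), SUI2 of the 3 eIF2 genes, GCN3, GCD1, GCD2 and GCD6 of the 5 eIF2B genes, GCN2 and GCN1 of the 3 kinase genes, TIF35, HCR1 and CLU1 of the 7 eIF3 genes, CDC33 (eIF4E) and TIF4632 (eIF4G). With the replicate block 21 of 30 passed, beside 83.9% of all genes, adding SUI3, GCD7, GCN20, PRT1, TIF34, CAF20 and TIF5. For tails the same-numbered libraries correlated only weakly over genes, at 0.26, 0.15 and 0.05. A fit of the 2 degrons alone gave 8 of 30 (54.1% of all genes), leaving out Dcp2 replicate 1 gave 8 (57.2%), and leaving out Dcp2 replicate 2 gave 26 (92.9%).

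GCN3 had the largest difference, 0.73 ± 0.21 (adjusted p = 0.0255), from 24.4 and 38.5 nt to 50.8 and 50.8 nt. HCR1 went from 26.9 and 34.3 nt to 44.9 and 47.8 nt (0.61 ± 0.15, adjusted p = 0.0182), and TIF11 went from 26.6 and 29.8 nt to 41.3 and 42.3 nt (0.57 ± 0.12, adjusted p = 0.0145). Of the eIF4A genes, TIF1 had 39.2 and 44.6 nt and TIF2 39.6 and 44.2 nt in the Ccr4/Pop2 degron, and neither passed, at 0.19 ± 0.19 and 0.18 ± 0.17. The eIF4G paralogs differed in outcome: TIF4632 went from 31.8 and 28.6 nt to 45.1 and 42.6 nt and passed (0.54 ± 0.13, adjusted p = 0.0175), and TIF4631 went from 42.9 and 48.0 nt to 50.7 and 52.2 nt and did not (0.18 ± 0.14, adjusted p = 0.237). The difference between these paralogs was not tested. DED1, too low in reads for the tail test, had between 48.0 and 57.2 nt in all 6 libraries. The calls end when either Ccr4/Pop2 library is left out, which leaves 0 genes called in the whole table, and when each library is centred on its median gene, where 9 of the 14 turned negative.

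Level and tail differences between the degrons ran in opposite orders over the members. Over 30 members the log2 differences of level and of tail between the degrons had a Spearman correlation of -0.69, beside -0.41 over 3949 genes. RPG1, NIP1 and FUN12, with level differences over 1 on the log2 scale, had tail differences of 0.08, 0.11 and 0.13, while HCR1 and SUI1, with level differences of -0.26 and -0.19, had tail differences of 0.61 and 0.49. TIF4632 combined both, at 1.38 for level and 0.54 for tail. The points share all 4 libraries. Against the wild type the members' correlation was weaker, at -0.31 for the Dcp2 degron (all genes -0.51) and -0.18 for the Ccr4/Pop2 degron (all genes -0.01).

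Other genes of the initiation pathway, from a list of 14 that were all listed, were lower for 6 and higher for 0 in the Dcp2 degron with the block, beside 19.7% and 17.6% of all genes, with a median log2 change of -0.31, beside -0.0027 for all genes. Those 6 were PAB1, the poly(A)-binding protein (-0.78, adjusted p = 0.0022), GCN4 (-0.34, adjusted p = 0.031), RLI1, a ribosome recycling factor (-0.60, adjusted p = 0.013), TMA20 (-0.36, adjusted p = 0.033), SBP1, an eIF4G-binding repressor (-0.51, adjusted p = 0.0055), and HYP2, the eIF5A gene (-1.19, adjusted p = 1.3e-06). In the Ccr4/Pop2 degron RLI1 was higher (0.51, adjusted p = 0.023) and GCN4 lower (-0.69, adjusted p = 0.00035), 1 of 14 each way, beside 14.2% and 12.8% of all genes. Without the block 0 of the 14 passed in either comparison, and with the block and scaling by total counts the Dcp2 median turned to 0.21, with 2 higher and 1 lower. Translation of GCN4, the activator of amino acid synthesis genes, is the textbook readout of eIF2 and eIF2B activity, which RNA level does not measure.

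Of 17 Gcn4 target genes 16 were listed. With the block, the Dcp2 degron had 6 lower and 2 higher, beside 19.7% and 17.6% of all genes, with a median of -0.22. The Ccr4/Pop2 degron had 6 lower and 1 higher, beside 12.8% and 14.2% of all genes, with a median of -0.32, beside -0.01 for all genes. ARG1 was at 56.1 and 39.5 CPM for wild type, 13.0 and 9.10 CPM with the Dcp2 tag and 9.43 and 11.0 CPM with the Ccr4/Pop2 tags, and HIS4 was at 199 and 167, 96.3 and 82.4, and 98.6 and 67.2 CPM. Both genes fell in both degrons (ARG1 adjusted p = 7.9e-06 and 1.2e-06, HIS4 adjusted p = 3.2e-05 and 2.2e-05), and their libraries did not overlap with the wild type. LYS1, low at 14.4 and 4.83 CPM for wild type, rose in both degrons (0.94, adjusted p = 0.030, and 1.42, adjusted p = 0.0012). HIS5 rose in the Dcp2 degron (0.69, adjusted p = 0.001) and fell in the Ccr4/Pop2 degron (-0.53, adjusted p = 0.014). CPA1 was at 125 and 118 CPM for wild type, 107 and 113 CPM with the Dcp2 tag and 52.3 and 47.3 CPM with the Ccr4/Pop2 tags, and fell in the Ccr4/Pop2 degron (-1.26, adjusted p = 1.1e-05), with a change of -0.14 in the Dcp2 degron (adjusted p = 0.49). Without the block 0 of the 16 passed. Against the wild type 0 genes of either list passed the tail test, and between the degrons 9 of 14 and 9 of the 13 targets with enough reads had longer Ccr4/Pop2 tails, near the 69.6% of all genes.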

How the data were processed

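The table deposited by the authors holds, per the file headers, whole-number read counts per gene and library, not normalized, and a median value per gene and library, taken here as median poly(A) tail length in nt. Per the submitters' processing notes, minimap2, SAMtools 1.9 and sacCer3 were used. The basecaller, the tail caller's settings, the rule for assigning reads to genes and the use of strand are not given in the sources used here. Per the labels' protocols, extraction used hot phenol, and the direct RNA kit was SQK-RNA002. Unnumbered columns were taken as replicate 1 by elimination, and 0 columns of per-sample values matched no sample. All 4909 genes have a value in all 6 libraries, so genes without one were not analysed here.

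The members and all gene lists were chosen with earlier results of these data known. The level test was that of edgeR 4.0.16, run in R 4.3.3 (TMM, filterByExpr, which removed 0 genes, quasi-likelihood test, all 6 libraries, no block) and, as an alternative, with the replicate number as a block; standard errors were derived from the fitted log2 change and its F statistic. Pairing comes from the replicate numbers in the labels and headers: deviations from the group means of same-numbered libraries correlated at 0.80, 0.82 and 0.79 over genes for level, so block values are printed for levels. Log2 tail length was compared with limma 3.58.1 without a block for 3949 genes, all with a minimum of 20 reads per library. P-values were adjusted by Benjamini-Hochberg over all genes tested, and an adjusted p under 0.05 was called. DESeq2 1.42.0, other scalings, read minimums, centring of tails and leaving out libraries were alternatives, and scripts were tested on simulated data.

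The rule for named genes was to name every member, with library values as CPM for the 12 called members with the largest level changes and the paralog pairs, and library tails for the 3 highest and 3 lowest tail changes. SUI2, PRT1, HCR1, TIF5 and FUN12 levels, TIF11 tails and the genes of the other lists were picked for library values after their values were seen. Totals of 1067250 to 8450296 reads limit precision most for DED1, EAP1 and GCN2. A floor of 3 reads equals 0.355 to 2.81 CPM of the library total. Positions are from RefSeq R64, where 32 listed members matched.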

Additional observations from a re-analysis of the deposited data

How the results depend on the processing

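With the replicate number as a block, the number of genes called for level went from 0 to 1834 (Dcp2 degron against wild type), from 4 to 1327 (Ccr4/Pop2 degron against wild type) and from 0 to 2311 (between the degrons). Its use with the replicate 1 counts of the Ccr4/Pop2 degron divided by 4 (1947, 1234 and 2255 genes), chosen after seeing the data, made 21 members lower in the first comparison and as many members as before in the others. Scaling by total counts called 5, 0 and 0 genes without and 2790, 1424 and 2489 with the block, and moved the members' median in the Dcp2 degron from -0.69 without a block to -0.188 and -0.155. DESeq2 called 53, 33 and 155 genes. For the Ccr4/Pop2 degron against wild type the 4 genes became 2 with other size factors (RLE), and 0 with only these groups in the model or with at least 50 reads. Leaving out 1 library, fitted without and with the block, the latter also chosen after seeing the data, gave 0 to 2022, 0 to 995 and 0 to 2182 genes. TIF35 in the Dcp2 degron turned to 0.057 and, with the block, 0.040 under total-count scaling.

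Over the same fits with 1 library left out, the sign of some members called with the block turned. It turned only in fits without the block, and signs held in those with it. The Dcp2 change ran from -1.41 to 0.19 for NIP1 and from -1.46 to 0.50 for FUN12. The Ccr4/Pop2 change against wild type ran from -0.75 to 0.026 for TIF3, from -0.28 to 1.21 for RPG1, from -0.30 to 1.43 for NIP1 and from -0.50 to 1.72 for FUN12. The difference between the degrons ran from -0.018 to 0.84 for GCD2, from -0.26 to 2.11 for EAP1 and from -0.18 to 1.01 for CAF20.

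For tails the same-numbered libraries correlated at 0.26, 0.15 and 0.05 over genes. This correlation leaves out a shift shared by all genes of a library, so it does not settle whether the numbers pair the tails. The median gene's tail was longer in replicate 2 in each strain. The block called 0, 0 and 3313 genes (2749 without it between the degrons), and 21 members in place of 14. Tails in nt gave 2 genes in the Dcp2 degron, centring 1, 0 and 0 genes, and for the members' medians 0.123, -0.078 and -0.172. Only the compared groups in the model gave 2336 genes for the Ccr4/Pop2 degron against wild type, and at least 50 reads gave 1739 between the degrons. Leaving out a library gave 0 to 2073 genes (2073 without Dcp2 replicate 2) and member medians of -0.235 to 0.049 in the Dcp2 degron, and 0 to 3671 genes and medians of 0.248 to 0.515 between the degrons. After centring, SUI1, SUI2, GCD1, GCD2, GCD6, GCN1, CLU1, CDC33 and TIF4632 had differences of -0.054, -0.116, -0.061, -0.098, -0.100, -0.088, -0.068, -0.168 and -0.0095. The cause of these changes was not tested. Low reads limit DED1, EAP1 and GCN2 most and also TIF4632, and the 2 libraries of each strain limit every test.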
